A study of Rattus norvegicus with 372 samples.

Results

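In primary rat hepatocytes, 150 genes whose probes gave almost no reads in vehicle-treated wells gave reads in every well treated with 10000 µM valproic acid. They were chosen by their counts in these same wells. Probes of the whole-transcriptome (WT) assay with a sum of at most 9 counts over the 9 vehicle wells were called silent, which held for 8872 of 22253 probes, and the 150 silent probes with the highest mean count in the 6 wells with 10000 µM valproic acid were taken. The difference between these wells and vehicle is therefore what the choice was made on, and it is described here without a test. A read count is the number of reads assigned to a probe in 1 well, and CPM is that count scaled so that the total of every well is the same.

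The hepatocytes came from male Wistar rats, 1 rat per batch and 2 batches, and were kept in collagen sandwich in 96-well plates. They were exposed for 24 h to 14 chemicals at 2 concentrations each in medium with 0.5% DMSO, to this DMSO medium without chemical (vehicle), or to medium alone, which carried no DMSO. All cultures received insulin, dexamethasone and EGF in the medium. Each treatment had 3 wells per batch, which are technical replicates of 1 rat's cells, and vehicle and medium alone had 9 wells each, 3 of batch 1 and 6 of batch 2. RNA was read in the lysates by TempO-Seq, in which pairs of detector oligos are ligated on their target and sequenced, with the WT assay and with a surrogate (ST) assay of 2654 probes.

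Valproic acid is an antiepileptic drug that inhibits histone deacetylases. These enzymes remove acetyl groups from histones, and in co-repressor complexes they take part in keeping genes of other cell lineages shut in a differentiated cell such as the hepatocyte. Genes bound by the repressor REST, which keeps neuronal genes off outside the nervous system, are a known example. Valproic acid is also a fatty acid that hepatocytes handle through acyl-CoA metabolism.

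The WT wells held from 2289425 to 8975207 reads, with a median of 6840355, and no well was a copy of another. Hepatocyte markers (8 probes for albumin, apolipoproteins and the like) summed to between 37756 and 45063 CPM in vehicle and to between 15959 and 22713 CPM with 10000 µM valproic acid. Kupffer cell and leukocyte markers (9 probes) summed to at most 63.4 CPM in vehicle and 22.7 CPM with 10000 µM valproic acid, and endothelial markers (7 probes) to at most 5.28 and 1.86 CPM, with Lyve1 and Stab2 at 0 with valproic acid. Stellate cell markers (8 probes) ranged from 223 to 343 CPM in vehicle and from 90.8 to 184 CPM with 10000 µM valproic acid. Cholangiocyte markers (7 probes) ranged from 37.7 to 50.6 CPM and from 51.0 to 77.2 CPM, with both Krt7 probes at 0 in each group. None of these markers was among the 150 genes. Their part in the levels described here was not tested, and in cultures fewer cells of a type and less RNA per cell cannot be told apart. The paper's ATP assay, run on a separate set of wells, gave its lowest viability with 10000 µM valproic acid.

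Among the 150 genes, 145 matched a RefSeq gene, all of them protein coding, on 20 chromosomes. Crmp1 and Jakmip1 lay with 2 genes between them, as did C1ql4 and Kcnh3. RefSeq promoters (250 bases before to 50 bases after the annotated start, assembly GRCr8) were at hand for 107 of the 150. Their median GC content was 63.3% against 51.0% for 4910 other silent genes and 58.0% for all 14343 genes with a probe and a promoter. Their median number of CpG dinucleotides was 20, against 5 and 16. A promoter rich in CpG (GC of at least 55% and an observed over expected CpG ratio of at least 0.65) was found for 58.9% of the 107, 17.3% of the other silent genes and 44.2% of all. The letters GGGCGG, read on both strands, were in 70.1%, 26.8% and 50.02% of these promoters, TATAAA in 5.61%, 19.5% and 11.2%, and CCAAT in 36.4%, 36.5% and 37.6%. These are letter matches in a window and say nothing of binding.

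The promoters of 4 members are shown with each CG in capitals: Kif1a, Tmem130 and Slc17a7, which have the highest counts among members with a promoter at hand, and Acot1, the member that other chemicals raised furthest. The stretches are chr9:101094728-101095027 on the minus strand for Kif1a, chr12:14950534-14950833 on the plus strand for Tmem130, chr1:104785955-104786254 on the plus strand for Slc17a7 and chr6:109367024-109367323 on the plus strand for Acot1, all in GRCr8.
Kif1a: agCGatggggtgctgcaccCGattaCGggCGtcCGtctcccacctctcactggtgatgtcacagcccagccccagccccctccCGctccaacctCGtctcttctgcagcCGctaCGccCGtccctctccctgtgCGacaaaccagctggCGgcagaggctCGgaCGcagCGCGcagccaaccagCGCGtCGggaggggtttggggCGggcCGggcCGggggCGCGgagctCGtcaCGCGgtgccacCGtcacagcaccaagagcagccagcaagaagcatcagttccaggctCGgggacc
Tmem130: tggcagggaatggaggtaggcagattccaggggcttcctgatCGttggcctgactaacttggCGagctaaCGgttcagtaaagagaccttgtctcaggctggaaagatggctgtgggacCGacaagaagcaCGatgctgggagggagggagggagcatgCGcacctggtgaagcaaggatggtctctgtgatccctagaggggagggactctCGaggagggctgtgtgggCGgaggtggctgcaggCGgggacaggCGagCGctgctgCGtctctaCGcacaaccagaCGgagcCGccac
Slc17a7: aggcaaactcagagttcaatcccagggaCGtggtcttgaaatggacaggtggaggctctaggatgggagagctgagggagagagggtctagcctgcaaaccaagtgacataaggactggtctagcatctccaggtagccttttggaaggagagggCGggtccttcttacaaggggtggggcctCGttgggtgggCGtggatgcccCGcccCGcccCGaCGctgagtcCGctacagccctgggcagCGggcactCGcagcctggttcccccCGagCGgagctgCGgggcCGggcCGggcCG
Acot1: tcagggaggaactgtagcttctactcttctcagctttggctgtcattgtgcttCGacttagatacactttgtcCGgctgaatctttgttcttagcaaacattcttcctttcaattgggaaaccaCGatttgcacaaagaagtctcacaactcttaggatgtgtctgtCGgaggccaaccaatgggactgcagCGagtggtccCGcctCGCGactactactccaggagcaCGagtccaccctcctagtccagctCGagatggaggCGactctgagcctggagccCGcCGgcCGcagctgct
All 3 of the first promoters hold GGGCGG and none of them holds TATAAA.

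Every one of the 150 genes was above 0 in all 6 wells with 10000 µM valproic acid, and 148 had at least 3 counts in each. The lowest of these wells was above the highest vehicle well for 148 genes. In vehicle, 24 were at 0 in all 9 wells, the median sum over the 9 wells was 3 counts, and the highest count of any member in 1 well was 5. Of all 17953 probes tested, 28.4% were called higher and 22.9% lower with 10000 µM valproic acid than in vehicle (edgeR quasi-likelihood test, Benjamini-Hochberg adjusted p under 0.05), and nothing is read from these shares about the members, since this contrast chose them.

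The counts in the treated wells were small for most of them. The median of the 150 mean counts was 23.5 per well. Of the 150, 26 had a mean over 50 counts and 10 a mean over 100, 72 lay between 20 and 50, and 52 were under 20. In order of their mean, the 26 were Csdc2, Kif1a, Tmem130, AABR07051069.1, Slc17a7, Tmem59l, Slc1a1, Tcp11, Igf2, Stk32c, AC095693.1, Efna3, Nrgn, Cbln1, Baiap3, Cacng7, Shox2, Zcchc18, Tbx1, Fsd1, Dhh, B4galnt4, Bmp8a, Kif5c, Fam131b and Tubb4a. The 72 included Sv2a, AABR07040695.1, Bmp4, Trim46, Espn, LOC100912608, Pcdh17, Acot1, Cd248, Insrr, Stmn3, Epha7, Ppfia4, C1ql4, Frmd5, Slc52a3, Rgs17, Pax9, Ankrd55, Gipr, Fam46b, Mboat2, Kcnab3, Adgrb2, Map7d2, Entpd3, Lhx9, Tub, Sncb, Zfp13, Foxc1, Draxin, Slc45a1, Foxd1, Tmem54, Plxdc1, Igf2bp1, Pdzd7, Hpcal4, Ppfia3, Mogat2, Ak5, Grid2ip, Fgf8, Lrrc23, Crabp1, Chrna5, Myom3, Slc9a2, Crispld2, Wnt1, Cacna1h, Chit1, Adra1a, Vwa5b2, Tmem151b, Lrrc63, Cdx2, Sez6l2, Cox6b2, Trim9, Olfm2, Areg, Hey1, Rfx2, Nxph3, Cacnb1, Dlk2 and Rbm11. The 52 were Nrn1, Grin1, Shisa8, Egr3, Barhl2, Jakmip1, Elavl3, Gng8, Crmp1, Zfp711, Bmp8b, Zic5, Foxo6, Cdh3, Lypd1, Tmc8, Tppp3, Pax6, Slc8a2, Dkkl1, S1pr5, Dynlrb2, Tceal5, Kcnh3, Cited1, Cadm2, Gli1, Nkx2.3, Ly6h, Bcl11a, Rab39a, Smarca1, Foxd2, Slc38a1, Pgbd5, Slit2, Ppp1r1b, Ripply3, Grin2c, Ovol2, Cdkn1c, Amph, Ptchd3, Npas1, Rdh12, Kcnc4, Sypl2, Lbx1, RGD1311084, Lhx1, Susd3 and Pax1. At the limit of the rule, Lhx1, Susd3 and Pax1 had means of 14.0, 13.8 and 13.7 counts, and Insl6, Msi1 and Prss56 just outside it had 13.7, 13.7 and 13.5 counts. Probes with 10, 11 or 12 vehicle counts and a mean as high as a member's numbered 15, 7 and 8.

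Csdc2, which encodes an RNA-binding cold shock domain protein, had the highest counts, with 216, 268 and 180 in the wells of batch 1 and 457, 326 and 323 in those of batch 2 (mean 295 ± 98.2, SD, n = 6). Vehicle gave 3 counts in all. In medium alone, however, Csdc2 was above 0 in all 9 wells, with 38 counts in all and 13 in the highest well, the most among the 25 leading members. In all, 23 of the 150 had more than 9 counts over the medium wells and would not be silent by the same limit there.

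Kif1a, a kinesin motor that carries synaptic vesicle precursors along axons, had 227, 320 and 182 counts in batch 1 and 258, 298 and 268 in batch 2 (mean 259 ± 49.6), against 5 in all vehicle wells and 1 in all medium wells. Its mean CPM was 477-fold that of vehicle, the highest ratio among the 63 members with more than 3 vehicle counts. For those 63 the ratio ran from 17.4 to 477 with a median of 39.2. Tmem130, a transmembrane protein, had 121, 143, 90, 154, 226 and 199 counts against 3 in vehicle. Slc17a7, the vesicular glutamate transporter of excitatory neurons, had 119, 128 and 83 counts in batch 1 and 226, 147 and 171 in batch 2, with 9 vehicle counts, the most that the rule allowed.

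Tmem59l, a membrane protein related to Tmem59, was at 0 in all vehicle and all medium wells. It had 97, 132 and 79 counts in batch 1 and 143, 122 and 116 in batch 2. Set against a floor of 3 counts over the vehicle wells, it was at least 351-fold higher. Cacng7, an auxiliary subunit of AMPA receptors and calcium channels, was likewise at 0 in vehicle and medium and was at least 260-fold higher, with 53 to 112 counts per well. For Shox2, a homeobox factor of limb, heart and nervous system development, the bound was 225-fold, with 43 to 109 counts. Over the 24 members at 0 in vehicle the bounds ran from 41.0 to 351.

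**Figure D1:**
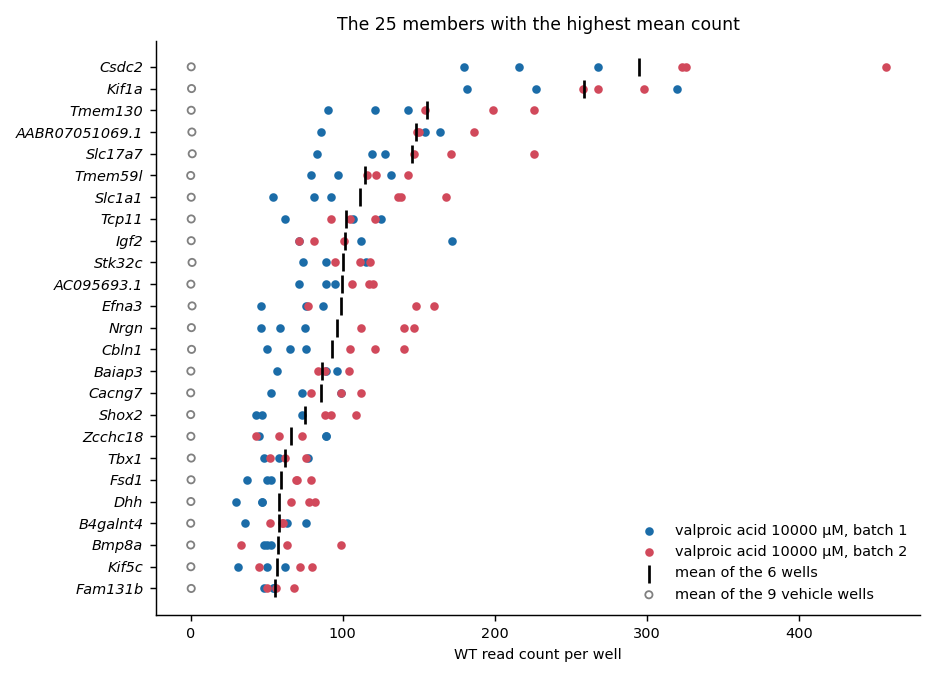
WT read count per well (horizontal axis) of the 25 members with the highest mean count; filled points are the 6 wells with 10000 µM valproic acid by batch, ticks their mean and open circles the mean of the 9 vehicle wells. Csdc2 lies between 180 and 457 counts and Kif1a between 182 and 320, while every vehicle mean is at or under 1 count.

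The members belonged to many classes of gene, and the lists with the most members were developmental transcription factors with 14 and secreted growth factors with 8. Of the 150, 59 were in at least 1 class list made from gene names and known roles, 3 of them (Stmn3, Grin1 and Slc17a7) in 2 lists, and 91 were in none. Because the members were picked from these data, the shares of classes are given as a description, beside the shares among the 8722 other silent probes.

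Developmental transcription factors, which set cell identity in the embryo, formed the largest class with 14 members, 9.33% of the members against 1.87% of other silent probes. They included Tbx1, Pax9, Lhx9, Foxc1, Foxd1, Barhl2, Zic5, Foxo6, Pax6, Nkx2.3, Foxd2, Lhx1 and Pax1, each of a family known from the pharynx, brain, eye, kidney or skeleton. Tbx1 was the highest, with 58, 77, 48, 62, 76 and 52 counts against 3 in vehicle. Pax9 had 25, 20 and 13 counts in batch 1 and 42, 45 and 42 in batch 2, so that its batches did not overlap. Shox2, Cdx2, Hey1, Gli1, Egr3, Lbx1, Ovol2, Npas1 and Bcl11a are further transcription factors outside the list.

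Secreted growth factors numbered 8 (5.33% against 0.986%). They were Igf2, the fetal insulin-like growth factor, the hedgehog ligand Dhh, the bone morphogenetic proteins Bmp8a, Bmp4 and Bmp8b, Fgf8, Wnt1, and the EGF receptor ligand Areg. Igf2 had 112, 172 and 71 counts in batch 1 and 71, 81 and 101 in batch 2, against 3 in vehicle and 1 in medium. Dhh had 47, 47 and 30 counts in batch 1 and 82, 78 and 66 in batch 2, with 1 count each in vehicle and medium.

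Several lists hold genes known from nerve cells, each with at most 6 members. The neuronal cytoskeleton and RNA-binding list had 6 members (4.00% against 0.149%), namely Kif1a and Kif5c, which are kinesins, Tubb4a, a tubulin, Stmn3 and Crmp1, which act on microtubules, and the RNA-binding protein Elavl3. Neurotransmitter receptors and their partners numbered 6 (4.00% against 0.906%), among them Grin1 and Grin2c of the NMDA receptor, the nicotinic subunit Chrna5, the adrenergic receptor Adra1a, and Grid2ip, which binds a glutamate receptor. Ion channel subunits numbered 6 (4.00% against 1.51%), with Cacng7, Kcnab3, Cacna1h, Cacnb1, Kcnh3 and Kcnc4. Only Slc17a7 and Sv2a came from the synaptic vesicle list (1.33% against 0.355%). Of the REST target list, Stmn3 and Grin1 were members (1.33% against 0.275%), and 24 probes of that list were silent and not members. Further neuronal genes outside the lists included Nrgn, a calmodulin-binding protein of dendrites, with 46 to 147 counts, and the synapse organiser Cbln1, with 50 to 140 counts.

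Solute carriers numbered 7 (4.67% against 1.33%), among them Slc17a7, the glutamate transporter Slc1a1 and the riboflavin transporter Slc52a3. Adhesion and axon guidance genes numbered 5 (3.33% against 1.01%), with the ephrin Efna3, the ephrin receptor Epha7, Pcdh17, Cdh3 and Slit2. The zinc finger genes Zfp13 and Zfp711, the immune list genes Cd248 and Ly6h, the sarcomere gene Myom3 and the ciliary transcription factor Rfx2 completed the classes. No member came from the lists of neuropeptides, germ cells, keratins and claudins, drug metabolism, histones, or olfactory and taste receptors, although the last list held 14.5% of the other silent probes. The testis gene Tcp11 was a member outside the germ cell list, so these absences hold for the lists only.

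The members were next compared between the batches, that is, between the cells of the 2 rats. Across the 150 genes the mean CPM of the batches gave Pearson r = 0.80 on the log2 scale and Spearman rho = 0.65, where all points share the same 6 libraries and the same choice. Between 2 wells of 1 batch r ran from 0.80 to 0.89, and between wells of different batches from 0.63 to 0.74. The CV over the 3 wells had a median of 20.9% in batch 1 and 19.1% in batch 2. The median ratio of batch 2 to batch 1 was 1.10, with 85 genes higher and 65 lower in batch 2, and 137 of the 150 within 2-fold. For 50 members the CPM of the batches did not overlap. The share over all probes was not computed, so this is not read as particular to the members.

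Only 3 members were over 4-fold apart. Areg had 4, 7 and 2 counts in batch 1 and 36, 49 and 29 in batch 2, a ratio of 6.89. Cadm2, a synaptic adhesion molecule, had 4, 6 and 4 counts in batch 1 and 30, 25 and 30 in batch 2, a ratio of 4.45. Ly6h, a modulator of nicotinic receptors, went the other way, with 20, 40 and 15 counts in batch 1 and 9, 4 and 9 in batch 2, a ratio of 0.225. Batch, rat and plate changed together, so these cannot be told apart.

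**Figure D2:**
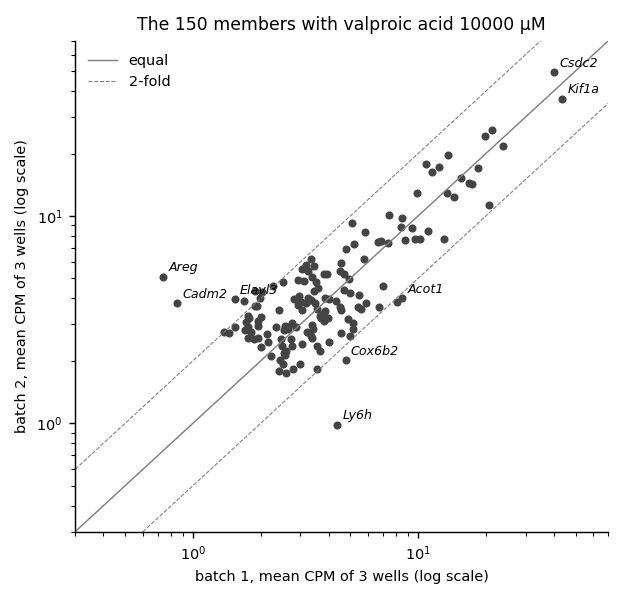
Mean CPM of each of the 150 members with 10000 µM valproic acid in batch 1 (horizontal, log scale) and batch 2 (vertical, log scale), means of 3 wells; lines mark equal levels and 2-fold differences. Most points lie within 2-fold (137 of 150), and Areg, Cadm2 and Ly6h lie farthest from the line.

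Applying the rule to 1 batch alone gave a choice that could be tested in the other. The vehicle limit, a mean of 1 count per well, was set in the batch of choice only. Probes chosen in batch 1 were not all silent in batch 2, where Npy had 6 to 16 counts per vehicle well and LOC100910996 4 to 11. The test therefore asks whether a probe was higher, not whether it was silent first. Of 150 probes chosen in batch 1, 149 were called higher in batch 2 with 10000 µM valproic acid than with vehicle (edgeR quasi-likelihood test within batch 2, adjusted over all probes tested), where 25% of all probes were called higher. Of 150 chosen in batch 2, 149 were called higher in batch 1, where 19.5% of all probes were. DESeq2 called 82 of the latter, with an adjusted p for 141, and 103 of those chosen in batch 1, with an adjusted p for 148. With the authors' minimum mean of 10 counts, 6 of the probes chosen in batch 2 and 11 of those chosen in batch 1 were tested, and 6 and 10 were called higher. Nothing further is read from this, since the filter also counts the wells tested. Of the 150 members, 107 were also chosen by batch 1 alone and 129 by batch 2 alone, and 92 probes were chosen by both single-batch lists. Each list held 150 probes, so that 61.3% of each was shared.

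The ST assay of the same lysates carried a probe of the same name for 12 members. For 11 of them the wells with 10000 µM valproic acid lay above all vehicle wells, without overlap. Zcchc18 had 37 to 71 ST counts against 0 or 1 in vehicle, Kif5c 34 to 80 against 0 or 1, and Bmp4, a ligand of the TGF-beta family, 28 to 83 against 0 to 3. The exception was Cdh3, a cadherin, with 0 to 6 ST counts against 0 or 1, although its WT mean was 18.0 counts. Both assays read the same wells, so the ST values are a second reading and not a replicate.

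Genes that act in deacetylation and repression of chromatin were all outside the 150. Of 37 tested probes of that list, 13 were higher and 10 lower with 10000 µM valproic acid than in vehicle in the test across all probes, shares of 35.1% and 27% beside the 28.4% and 22.9% of all probes. The largest changes were in Hdac9, a class IIa deacetylase, which fell by 3.41 on the log2 scale (SE 0.575, adjusted p = 7.2e-08, edgeR quasi-likelihood test), from a median of 1.33 CPM to 0.145 CPM. Sap30, a subunit of the Sin3 deacetylase complex, rose from between 12.7 and 18.8 CPM to between 64.6 and 98.9 CPM (L2FC 2.13, SE 0.108). Hdac1 rose from between 4.92 and 12.4 CPM to between 27.7 and 56.8 CPM (L2FC 1.93, SE 0.186), and Hdac7 fell by 2.02 on the log2 scale at levels under 1.4 CPM. Kat2a, a histone acetyltransferase, fell by 0.97, and the higher of the 2 Hdac6 probes rose by 0.93. The repressor Rest had an L2FC of -0.17 (adjusted p = 0.15, edgeR), with 18.0 to 28.8 CPM in vehicle and 20.2 to 30.7 CPM with valproic acid.

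The response at 400 µM valproic acid, which the rule did not use, was compared with medium alone, because the vehicle wells had been used to choose the members. This comparison holds the effect of 0.5% DMSO as well as that of valproic acid. All 150 members passed the filter of 10 counts over all wells, which each of them could pass through the wells with 10000 µM valproic acid alone. At 400 µM 7 of the 150 were called higher and 2 lower, beside 10.6% and 11.8% of all 17953 probes (edgeR quasi-likelihood test), so the share of members called, 4.67% and 1.33%, was below that of all probes. It was above that of the 4422 other silent probes that passed the filter, of which 1.58% were called higher and 0.543% lower. Counts were low, with 125 of the 150 at no more than 9 counts over the 6 wells and 19 at 0 in all of them.

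Acot1 stood out. It encodes an acyl-CoA thioesterase, an enzyme that frees fatty acids from coenzyme A, and its gene is a known target of the nuclear receptor PPARα. It had 325, 263 and 214 counts with 400 µM valproic acid in batch 1 and 75, 142 and 96 in batch 2, against 0 or 1 in each vehicle and each medium well (adjusted p = 2.3e-57, edgeR quasi-likelihood test). With 10000 µM it had 42, 65, 35, 32, 29 and 29 counts, so every well with the lower concentration was above every well with the higher one. In CPM the means were 27.4 and 6.25. The ST probe of Acot1 gave 135 to 416 counts with 400 µM and 55 to 95 with 10000 µM, again without overlap, and 0 to 2 in vehicle. Acot1 alone made up 60.5% of the summed CPM of all members with 400 µM valproic acid. Acot1 has near-identical relatives with probes of their own, so reads may have been shared between them.

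The other 6 members called higher with 400 µM had few reads, and none of them had more than 7 counts in a well. Baiap3, which acts in dense-core vesicle release, had 4, 4, 1, 1, 0 and 2 counts against 0 in medium (adjusted p = 0.0010, edgeR). Grin1 had 2, 0, 0, 2, 2 and 1 against 0 (adjusted p = 0.043, edgeR), and Tmem151b 0, 5, 0, 1, 0 and 6 against 1 in all medium wells (adjusted p = 0.014, edgeR). These wells overlapped with medium, most at 0 or 1 count. Crabp1, a retinoic acid binding protein, summed to 15 counts against 2, Tcp11, a testis gene, to 19 against 5, and Ankrd55 to 26 against 11. Of the members called lower, Csdc2 had 1 or 2 counts in each well against the 38 in medium described above (L2FC -1.81), and Areg was at 0 in all 6 wells against 11 counts over the medium wells. Csdc2 had 3 counts over the 9 vehicle wells, fewer than its 7 over the 6 wells with 400 µM. With wells summed per batch no member was called lower, and 4 were called higher. Of the 6 wells, 2 of batch 2 had 1618 and 1848 silent probes above 0, where the other 4 had 833 to 1225. With both left out, 4 members were called higher and 1 lower, and with either left out 4 were called higher.

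Against the other 13 chemicals' low concentrations, which also contain DMSO, 21 members were called higher with 400 µM valproic acid, beside 12.7% of all probes, and none was called lower, beside 9.27%. No member was lower at an unadjusted p under 0.05 in this comparison either. The difference between batches in the response to 400 µM was called for none of the 150 in the edgeR test, where 0.329% of all probes were called with a higher response in 1 batch and 0.15% with a lower one. At an unadjusted p under 0.05 there were 1 and 3 members. DESeq2 gave an adjusted p for 34 of the 150 and called none of these.

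The summed CPM of the members without Acot1 placed 400 µM valproic acid above every vehicle well, in part within the range of medium, and far below 10000 µM. It ran from 6.35 to 10.2 in vehicle, from 7.91 to 15.9 in medium alone, from 14.5 to 21.5 with 400 µM and from 787 to 885 with 10000 µM valproic acid. Members above 0 had a median of 37 per well in vehicle, 44 in medium, 64.5 with 400 µM and 150 with 10000 µM. The ranges of medium and 400 µM overlapped. Over the other silent probes the mean sums were 162, 200, 297 and 685 CPM in the same order.

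**Figure D3:**
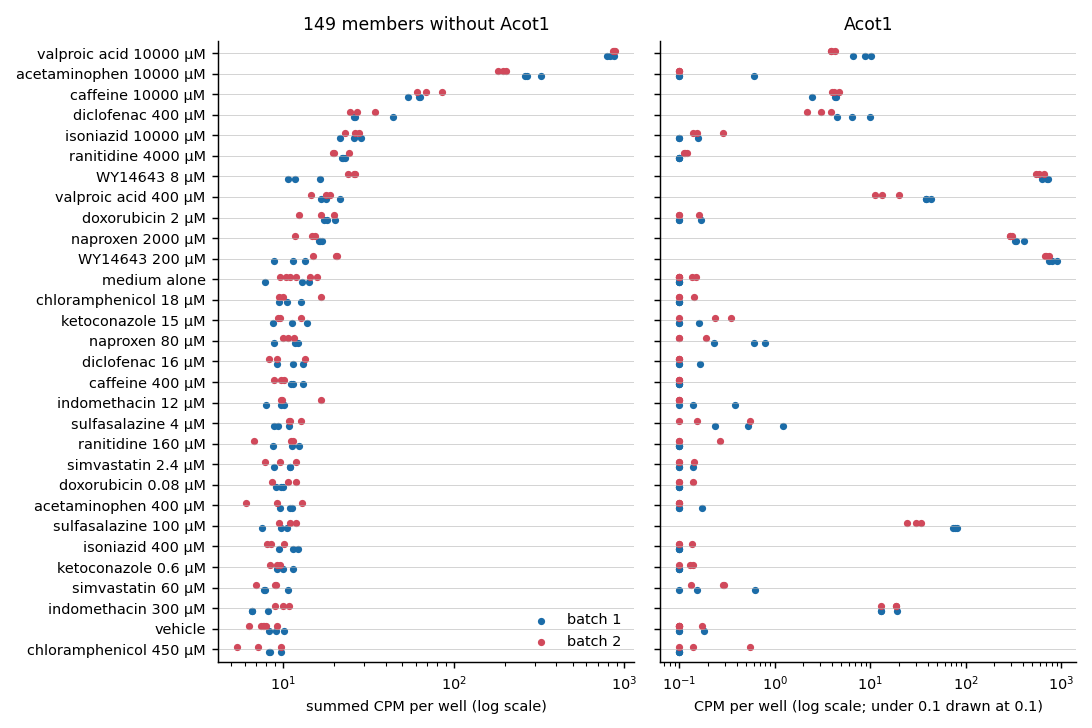
Summed CPM of the 149 members other than Acot1 per well (left, log scale) and CPM of Acot1 per well (right, log scale, values under 0.1 drawn at 0.1) in every group, with points by batch. With 10000 µM valproic acid the sum lies between 787 and 885 CPM, with 10000 µM acetaminophen between 182 and 326, and Acot1 is highest with WY14643.

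The other 26 treatments were each compared with the same 9 medium wells, so these comparisons are not independent of each other. Acetaminophen, WY14643, indomethacin, sulfasalazine, ketoconazole and chloramphenicol were on plate 5 in batch 1, while the medium and vehicle wells of that batch were all on plate 4, so in batch 1 plate and treatment cannot be told apart for these chemicals. In batch 2 they were on plate 3, which held 3 of the medium wells. With at least 1 of the 26 treatments, 95 members (63.3%) were called higher (edgeR quasi-likelihood test), beside 65.8% of all probes tested and 27.6% of the other silent probes tested. With the authors' minimum mean of 10 counts 4 members were tested, and all 4 were called higher with at least 1 treatment. Acot1 and Pcdh17 pass that filter through treatments with which they are called higher, among them WY14643 and acetaminophen. Nothing is read from this result. Of the 95, 35 were called with 1 treatment, 35 with 2 and 25 with 3 or more, and 14 treatments had at least 1 member called higher. Most calls came from the high concentrations of acetaminophen, caffeine and diclofenac.

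Acetaminophen, an analgesic, at 10000 µM gave the most, with 71 of 150 members (47.3%) called higher beside 29.1% of all probes and 15.3% of the other silent probes tested. On the same plates, 400 µM acetaminophen called none higher (beside 4.62% of all probes), and the members' sum without Acot1 was 10.1 CPM ± 2.36 (SD, n = 6 wells). In 70 of the 71 called with 10000 µM the direction was the same in both batches, and in 35 the wells did not overlap with medium. These counts were not made over all called probes, so they are not read as particular to the members. With 10000 µM acetaminophen the members' sum without Acot1 was 182 to 326 CPM, between the levels of medium and of 10000 µM valproic acid, with a mean of 286 in batch 1 and 193 in batch 2. The other silent probes summed to 661 to 2032 CPM with 10000 µM acetaminophen and to 624 to 729 CPM with 10000 µM valproic acid. The median member was 0.153 CPM above its medium level, against -0.028 CPM over all probes tested. At least 10 counts over the 6 wells were found for 73 members (48.7%) and for 6.27% of the other silent probes.

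Pcdh17, a protocadherin of neuronal adhesion, had 263, 417 and 288 counts with 10000 µM acetaminophen in batch 1 and 512, 399 and 357 in batch 2, against 8 counts over the medium wells (L2FC 8.76, SE 0.263, adjusted p = 2.2e-103, edgeR). This exceeded its 20 to 62 counts with 10000 µM valproic acid in every well. Grin1 was at 0 in all medium wells and had, with 10000 µM acetaminophen, 118, 88 and 104 counts in batch 1 and 20, 41 and 56 in batch 2, so its batches did not overlap. With the same treatment Stk32c, a protein kinase, had 90 to 218 counts, Slc1a1 73 to 159 and Dhh 33 to 83, all with at most 3 counts in a medium well. With 400 µM acetaminophen, on the same plates, the 6 wells together held 6 counts of Pcdh17, 2 of Grin1, 11 of Stk32c, 4 of Slc1a1 and 1 of Dhh.

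By class, 11 of the 14 developmental transcription factors were called higher with 10000 µM acetaminophen, and Nkx2.3, Foxd2 and Lhx1 were not. The share called higher with this treatment was 47.3% over all members and 29.1% over all probes. Foxc1 had 11, 27, 17, 19, 20 and 13 counts against 3 over the medium wells, and Foxd1 10, 10, 10, 26, 28 and 6 against 2. Of the adhesion and guidance genes 4 of 5 were called, of the solute carriers 5 of 7, of the secreted factors 5 of 8, of the cytoskeleton genes 3 of 6 and of the receptors 3 of 6. None of the 6 ion channel subunits was called, and whether this class differs from the rest was not tested.

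Caffeine, an adenosine receptor antagonist, at 10000 µM called 37 members (24.7%) higher, a share near the 24.6% of all probes and above the 7.78% of the other silent probes tested. All 37 had the same direction in both batches and 12 did not overlap with medium, counts that were not made over all called probes either. Lhx9 had 55, 41 and 71 counts in batch 1 and 59, 94 and 101 in batch 2 against 5 over the medium wells (L2FC 6.76, SE 0.336, edgeR adjusted p = 1.4e-56), more than its mean of 29.0 counts with 10000 µM valproic acid. Grin2c had 14, 27, 24, 8, 11 and 28 counts against 1. Chit1, the chitinase of activated macrophages, is named here because of its level, with 74, 41, 73, 75, 196 and 268 counts, but it was not silent in medium, with 32 counts over the 9 wells.

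Diclofenac, an anti-inflammatory drug, at 400 µM called 20 members higher beside 24.3% of all probes, a smaller share of the members (13.3%) than of all probes, and a larger one than the 6.6% of other silent probes. Of the 20, 8 were developmental transcription factors. Foxd1 had 18, 11, 11, 16, 8 and 7 counts against 2 over the medium wells, and Zic5 6, 1, 2, 4, 3 and 4 against 0. Pax6, the eye and brain regulator, named here after its values were seen, had 32, 21, 17, 25, 27 and 13 counts against 9 over the medium wells. That was close to its 10 to 29 counts with 10000 µM valproic acid.

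None of the remaining treatments called a larger share of the members higher than of all probes. All 14 treatments with such a call did so for a larger share of the members than of the other silent probes tested, with 11.3% against 1.18% for isoniazid 10000 µM, 8.67% against 3.08% for ranitidine 4000 µM, 7.33% against 3.08% for WY14643 200 µM and 5.33% against 1.33% for doxorubicin 2 µM. The counts of members higher, each beside the share of all probes, were 17 with isoniazid 10000 µM (12.1%), 13 with ranitidine 4000 µM (19.8%), 11 with WY14643 200 µM (16.7%), 9 with naproxen 2000 µM (17.4%), 8 with doxorubicin 2 µM (8.36%), 5 with ketoconazole 15 µM (14.6%), 5 with sulfasalazine 100 µM (14.5%) and 2 with indomethacin 300 µM (16.2%). At low concentrations there were 6 with WY14643 8 µM (17.9%), 2 with sulfasalazine 4 µM (10.7%) and 1 with naproxen 80 µM (6.07%). The other 12 treatments called none higher by edgeR, with 1 to 4 members higher at an unadjusted p under 0.05 in each. For these the share of all probes was 12.7% with chloramphenicol 450 µM, 6.3% with simvastatin 60 µM, 5.16% with indomethacin 12 µM, 4.88% with doxorubicin 0.08 µM, 4.62% with acetaminophen 400 µM, 3.75% with simvastatin 2.4 µM, 2.75% with diclofenac 16 µM, 2.63% with caffeine 400 µM, 2.46% with ketoconazole 0.6 µM, 2.39% with isoniazid 400 µM, 1.72% with chloramphenicol 18 µM and 1.06% with ranitidine 160 µM.

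Members were also called lower than medium, 23 of them (15.3%) with at least 1 of the 26 treatments, beside 56.8% of all probes tested and 6.67% of the other silent probes tested. At least 1 member was called lower by 24 treatments. Diclofenac at 400 µM called 11 lower (beside 26.1% of all probes), caffeine at 10000 µM 8 (23.5%), ranitidine at 4000 µM 8 (21%), chloramphenicol at 450 µM 6 (16.5%), indomethacin at 300 µM 6 (18.3%) and WY14643 at 8 µM 6 (21.3%), and each of the others called 0 to 5. In all 26 the share of members called lower was below that of all probes, and in 23 it was above that of the other silent probes tested. Csdc2 was called lower with 20 treatments and Dynlrb2, a dynein light chain, with 16. The 2 are named here after their values were seen, and both had more counts in medium alone than in vehicle, 38 against 3 for Csdc2 and 22 against 6 for Dynlrb2.

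Acot1 was called higher with 8 of these treatments, more than any other member was called higher with. The highest levels came from WY14643, a PPARα agonist, with 5529 to 5932 counts at 200 µM and 2987 to 4743 at 8 µM. Naproxen at 2000 µM gave 1928 to 2636 counts, and sulfasalazine at 100 µM 576, 544 and 587 in batch 1 but 196, 221 and 196 in batch 2. Indomethacin at 300 µM gave 76 to 151 counts, diclofenac at 400 µM 16 to 62 and caffeine at 10000 µM 13 to 36. With WY14643 the mean was 764 CPM at 200 µM and 642 at 8 µM, both above the 27.4 CPM with 400 µM valproic acid, and the wells did not overlap. With 10000 µM acetaminophen, the treatment without valproic acid that called the most members higher, the mean was 0.101 CPM. A direct repeat of AGGTCA spaced by 1 base, named DR1, is the type of element that PPARα binds, and its exact letters on either strand were in none of the 107 member promoters, nor in those of the other silent genes, and in 0.0279% of all.

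Besides Acot1, 2 other members reached a mean of at least 10 counts with 8 µM WY14643. The adrenergic receptor gene Adra1a had 6, 13 and 17 counts with 8 µM WY14643 in batch 1 and 50, 75 and 66 in batch 2, against 2 over the medium wells (adjusted p = 9.8e-31, edgeR). The calcium channel gene Cacna1h had 2, 4, 8, 16, 30 and 20 counts with 8 µM WY14643 against 0 in medium (adjusted p = 4.6e-14, edgeR). In both genes the wells of batch 2 were the higher ones. Csdc2 was called higher than medium with 1 of the 26 treatments, 4000 µM ranitidine, with 24, 19, 23, 28, 27 and 37 counts. Slc1a1 had 4 to 9 counts with ranitidine, and Tcp11 had 13, 13 and 18 in batch 1 but 0, 3 and 1 in batch 2. With isoniazid Slc9a2, a sodium-proton exchanger, had 4, 6, 2, 11, 5 and 5 counts against 4 over the medium wells. Cdkn1c, a cell cycle inhibitor, had 2, 2, 3, 3, 0 and 2 counts with 2 µM doxorubicin against 0.

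**Figure D4:**
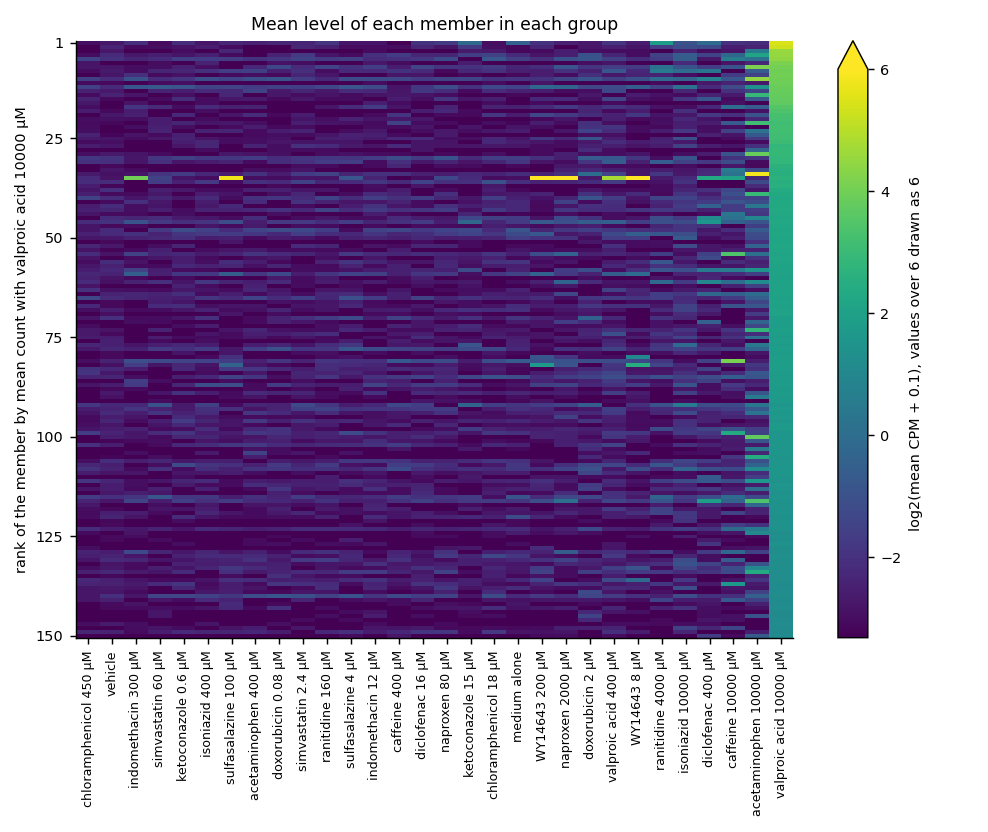
Mean level of each of the 150 members, in rank order by mean count with 10000 µM valproic acid (vertical), in each group (horizontal), as log2(mean CPM + 0.1) with values over 6 drawn as 6. The column of 10000 µM valproic acid is high throughout, that of 10000 µM acetaminophen is high in part of the rows, and 1 row, Acot1, is high with WY14643 and naproxen.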

How the data were processed

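WT and ST read counts per probe and well were used as the authors deposited them. Per the study's methods and processing notes, reads were aligned with STAR 2.5.3a to rn6, and the deposited counts are not normalized. The members and gene lists were chosen with earlier results of these data known. CPM was computed from the WT total of each well. Tests were fitted on all WT wells with edgeR 4.0.16 (R 4.3.3), TMM scaling, batch as a term, quasi-likelihood tests and Benjamini-Hochberg adjustment over 17953 probes with at least 10 counts in all, with calls at an adjusted p under 0.05. Single-batch choices were tested within the other batch. The fit was tested on simulated data of 400 µM valproic acid against medium. Of 100 probes raised and 100 lowered 4-fold, 98 and 82 were recovered, with 1 false call. The probes changed were not those with the lowest counts. Wells are technical replicates of 1 rat per batch. The batch term takes out the level difference between the 2 rats, so p-values measure mainly the spread between wells. Tests within 1 batch hold no spread between rats.

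The rule for naming genes covered the 25 members with the highest mean count, up to 4 per class, those called with 400 µM valproic acid, up to 3 called per other treatment, members with an ST probe, the chromatin genes with the largest change, and those at the limits of the rule and the batch ratio. More were named in the lists by mean count, by class and with acetaminophen. Pax6 with diclofenac, Chit1 with caffeine and the other members named beside them were chosen after their values were seen. Alternatives were RLE scaling, no filter, the authors' minimum mean of 10 counts, DESeq2 1.42.0, wells summed per batch, other comparators and rules, and each replicate left out. Shares of classes and promoters (RefSeq, GRCr8) carry no test. Some members were counted but are not reported by name here.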

Additional observations from a re-analysis of the deposited data

Results flagged for a closer look

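In the group treated with 12 µM indomethacin, 1 well of batch 2 stood apart from the other 5, with a summed level of the members of 16.8 CPM, both with and without Acot1. In that library 3131 silent probes and 16268 of all probes were above 0, and the part of this in the sum was not tested. Of 60 groups and sums examined in this way, 2 gave such a well, both this one. Chance gives such a well in about 1 in 20 groups, and the sums with and without Acot1 come from the same wells, so the 60 are not independent of each other.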

How the results depend on the processing

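Calls of members rested on low counts and moved with the settings. With 400 µM valproic acid against medium, 7 members were higher and 2 lower. The rule with 0 vehicle counts gave 0 and 0, the other 13 low concentrations as the comparator 21 and 0, a mean of at least 10 counts 1 and 1, and wells summed per batch 4 and 0. DESeq2 gave 4 higher, and the plates that hold valproic acid 1 lower. Leaving out each well in turn gave 4 to 7 higher and 1 to 3 lower. Leaving out both wells with the most silent probes above 0, chosen after seeing the data, gave 4 and 1. For the other 26 treatments, 95 members became 4 with a mean of at least 10 counts, a filter that 4 of the 150 members pass, 66 with DESeq2, 107 against vehicle and 132 for the high concentrations against 14 low ones. Of the probes chosen in batch 1, 149 were higher in batch 2, 10 with the mean of at least 10 counts and 149 with each well left out. Of those chosen in batch 2, 149 were higher in batch 1, 6 with the mean of at least 10 counts, 82 with DESeq2 and 147 to 148 with a well left out. The lower counts under the stricter filter come with fewer probes tested, and for the other settings the cause was not tested. In the chromatin list 13 to 14 were higher and 10 to 11 lower with a well left out. Leaving out medium wells was not run for the 26 treatments. Treated and control wells were paired by rat through the batch term of the fit and in the wells summed per batch. For single wells no paired analysis was possible because the labels give them no replicate numbers. Counts of a few reads per well limit what can be called for most members outside 10000 µM valproic acid.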
